A study of Homo sapiens with 22 samples.

Results

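YAP1 and WWTR1 (which encodes TAZ) are the transcriptional coactivators at the end of the Hippo pathway, TEAD1 and TEAD4 are DNA-binding partners of these coactivators, and CCN1, CCN2, ANKRD1, AMOTL2, AXL and AJUBA are genes widely used as readouts of the complex. These 10 genes were described in peak lists from TC-32, an established Ewing sarcoma cell line. They were chosen by name as parts of the pathway, and make up 10 of the 20033 protein-coding genes of GENCODE release 44. Every gene body and 50 kb to each side, here called a locus, was searched for peaks. The loci of the 10 genes held 231 of 90572 merged H3K27ac regions, 34 of 20727 merged H3K4me3 regions and 7 of 2706 merged ETS1 regions.

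In the Hippo pathway, a kinase cascade around MST and LATS kinases phosphorylates YAP and TAZ and holds them in the cytoplasm. When the cascade is off, YAP and TAZ enter the nucleus, bind TEAD proteins on DNA that carries the core GGAATG, and raise genes of adhesion, cytoskeleton and growth. H3K27ac, an acetylated histone, marks promoters and enhancers in use, and H3K4me3, a methylated one, marks promoters.

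The cells received 20 nM siRNA, either a negative control (siNEG) or one aimed at FLI1 (siFLI1) to deplete EWSR1::FLI1, the fusion oncoprotein of this tumour, which all cells carry. Of the 22 samples, 14 were immunoprecipitated libraries with a peak list each, and 8 inputs had none used here. Each arm had 2 libraries for H3K27ac (Active Motif antibody), 2 for H3K4me3 (EpiCypher) and 2 for ETS1 (CST), and 1 more H3K27ac library whose label names ab4729 as well as the Active Motif antibody. All samples came from this 1 cell line, and the labels do not say whether replicates were separate transfections, so that p-values measure the spread between libraries, which may be technical. The time after transfection and the number of reads were not given in the sources used here, and the knockdown itself was not checked, since a peak list does not measure RNA.

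H3K27ac lists held 60027 and 60401 peaks in siNEG and 65501 and 61481 in siFLI1, and covered 63.0 and 58.6 Mb in siNEG against 69.2 and 65.6 Mb in siFLI1. H3K4me3 lists covered 43.3 and 44.7 Mb in siNEG against 40.5 and 41.7 Mb in siFLI1. The siFLI1 arm thus carried longer H3K27ac and shorter H3K4me3 lists as a whole, and each result at a locus is given beside that of all loci. The 2 siFLI1 ETS1 lists, with 1633 and 2635 peaks, were counted as 1 sample, because summit heights in 495 regions differed by less than counting noise (chi-square per degree of freedom 0.418) and the peaks named in the first list carried the number of the second. The same ratio was 0.814 for the siNEG ETS1 lists (80 regions) and, on chromosomes 20 to 22, 0.957 for the siFLI1 (1192 regions) and 1.25 for the siNEG H3K27ac lists (1009 regions). For H3K4me3 it was 0.891 in siFLI1 (365 regions) and 1.09 in siNEG (323 regions). Heights were recovered for only 67.4% of the siFLI1 and 67.9% of the siNEG H3K4me3 peaks, against at least 99.6% for the other antibodies. In the regions compared, the siFLI1 libraries of both marks thus differed by no more than counting noise. They were kept as 2 samples because their peak names carried their own numbers. Calls that end without one of the siFLI1 libraries are named beside the results. H3K4me3 lay at a transcript start in both siNEG lists for 7 of 7 Ewing sarcoma markers and for 0 of 3 epithelial markers. H3K27ac did so for 6 of 7 Ewing sarcoma markers, with PAX7 the exception, and for 1 epithelial marker (EPCAM). In siFLI1 the epithelial count was 2 (EPCAM and CDH1), and their part in the results was not tested.

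Letters are shown for the promoters of CCN2 and ANKRD1, chosen as examples after their values were seen, and for summits of regions that appeared. Promoter sequences are the 250 bases before the RefSeq transcript start (GRCh38.p14), read in the direction of transcription. Both genes are on the minus strand, CCN2 at chr6:131951373-131951622 and ANKRD1 at chr10:90921088-90921337. Capitals mark GGAATG (or its reverse complement CATTCC) and TGANTCA, the core that AP-1 factors read.
CCN2 promoter: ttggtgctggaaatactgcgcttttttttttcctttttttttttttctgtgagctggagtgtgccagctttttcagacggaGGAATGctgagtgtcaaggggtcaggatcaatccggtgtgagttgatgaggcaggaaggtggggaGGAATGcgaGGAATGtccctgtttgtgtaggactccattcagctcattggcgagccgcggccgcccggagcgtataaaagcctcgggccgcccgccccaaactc
ANKRD1 promoter: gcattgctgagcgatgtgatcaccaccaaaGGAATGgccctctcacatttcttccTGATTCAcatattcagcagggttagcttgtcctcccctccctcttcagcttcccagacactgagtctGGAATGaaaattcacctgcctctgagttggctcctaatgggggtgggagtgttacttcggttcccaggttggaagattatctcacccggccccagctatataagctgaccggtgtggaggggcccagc

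The CCN2 promoter held 3 copies of GGAATG, with last bases 164, 99 and 90 bp before the start. That of ANKRD1 held 2 copies, 215 and 123 bp before the start, and 1 AP-1 core. The RefSeq table matched 7 of the 10 genes in 11 promoter windows (TEAD1, TEAD4 and CCN1 were not matched). GGAATG lay in 6 of the 11 windows, 1 each at YAP1, CCN2, ANKRD1, AMOTL2, AXL and AJUBA, and in 11.9% of all 35116 windows of the same length. The AP-1 core lay in 1 of the 11 and in 6.57% of all windows, and CCGGAA, the ETS core, in 1 of the 11 (AXL) and in 14.5%.

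The following 201 bases are centred on H3K27ac summits of regions present in both siFLI1 lists and neither siNEG list, called gained, and are given on the plus strand of hg38. These are the 4 of 17 gained summits that had GGAATG within 150 bp. Positions are chr10:90960907-90961107 (39.9 kb upstream of ANKRD1, intergenic), chr3:134316224-134316424 (58.1 kb downstream of the AMOTL2 start, in an intron of LINC02004), chr3:134353105-134353305 (21.2 kb downstream of the AMOTL2 start, in an intron of RPL39P5) and chr3:149604537-149604737 (an intron of WWTR1). Capitals are as above.
ANKRD1 upstream: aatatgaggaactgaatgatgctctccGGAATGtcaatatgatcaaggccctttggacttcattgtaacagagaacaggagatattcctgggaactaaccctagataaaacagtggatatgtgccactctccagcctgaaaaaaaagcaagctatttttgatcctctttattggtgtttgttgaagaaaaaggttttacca
AMOTL2 distal: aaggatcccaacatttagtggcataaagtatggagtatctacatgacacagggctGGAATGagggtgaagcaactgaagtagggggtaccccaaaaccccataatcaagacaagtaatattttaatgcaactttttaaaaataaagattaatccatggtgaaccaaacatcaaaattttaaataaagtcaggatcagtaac
AMOTL2 proximal: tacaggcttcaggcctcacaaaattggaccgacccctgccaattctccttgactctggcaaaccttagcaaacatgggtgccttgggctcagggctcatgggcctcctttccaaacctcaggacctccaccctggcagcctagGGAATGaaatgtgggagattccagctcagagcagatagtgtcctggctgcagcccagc
WWTR1 intron: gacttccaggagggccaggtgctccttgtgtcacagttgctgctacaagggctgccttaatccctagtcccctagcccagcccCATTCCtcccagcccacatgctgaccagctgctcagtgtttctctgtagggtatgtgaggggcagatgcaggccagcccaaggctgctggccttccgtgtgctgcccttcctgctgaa

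GGAATG lay within 150 bp of the summit in 17.7% of all 7415 gained H3K27ac regions and 15.8% of all H3K27ac regions, and in 39 of the 231 at the 10 genes. The AP-1 core lay at 0 of the 17 gained summits, against 9.6% of all gained regions. A run of at least 4 GGAA units, the form of site that EWSR1::FLI1 is known to bind, lay at 0 of the 231 summits and at 0.0729% of all. A match is a description of the letters and does not show that a factor was bound.

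Of the 231 H3K27ac regions, 17 were gained (7.36%), 4 were present in both siNEG lists and neither siFLI1 list, called lost (1.73%), 67 were in all 4 lists and 143 had other patterns. The genome-wide shares were 8.19% gained, 4.86% lost and 25.1% in every list, so the share gained at the 10 genes was near that of the genome. AMOTL2 and TEAD1 had 4 gained regions each, CCN1 and ANKRD1 3 each, WWTR1 2 and AXL 1. These counts depend on the number of regions at a locus. TEAD1 had 53 regions, of which 7.55% were gained, and AMOTL2 had 9, of which 44.4% were. YAP1, WWTR1, TEAD1 and TEAD4 had 1 lost region each, and 22.9% of all loci had at least 1. Gained regions outnumbered lost ones at 6 of the 10 loci (30.8% of all loci), and lost ones outnumbered gained at YAP1 and TEAD4 (2 of the 10, and 13.8% of all). At least 3 gained regions were found at 4 of the 10 loci and at 8.26% of all loci. All loci here are the 20033 of the annotation, also those with little or no H3K27ac. Of these, 15724 had a mean of at least 500 covered bp.

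**Figure D1:**
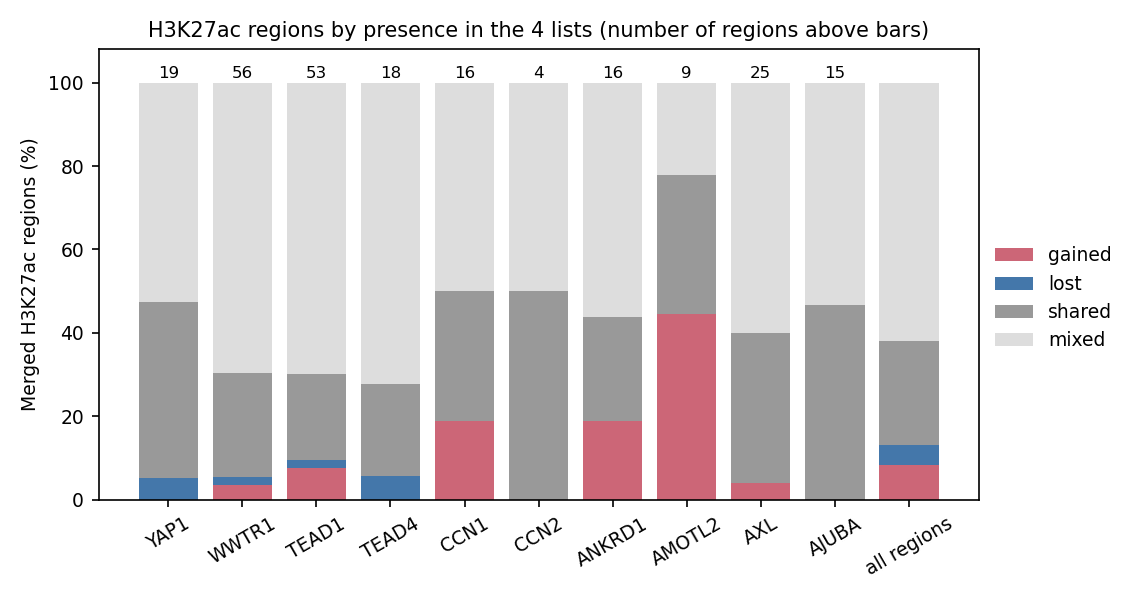
Share of merged H3K27ac regions that were gained, lost, in all 4 lists (shared) or of other patterns (mixed), in percent, for each gene and for all regions, with the number of regions above each bar. AMOTL2, with 4 gained of 9, had the highest gained share, and CCN1 and ANKRD1 had 3 gained of 16 each.

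The length covered by H3K27ac peaks per locus was tested with limma on log2(covered bp + 1000) across 15724 loci with a mean of at least 500 bp, adjusted by Benjamini-Hochberg. It rose in siFLI1 at 6 of the 10 genes, CCN1, ANKRD1, CCN2, AMOTL2, AXL and TEAD1. Number of peaks in place of length gave no call at any of the 10, with values below 0 at 6 of them, CCN2 (-0.03), AMOTL2 (-0.30), AXL (-0.10), WWTR1 (-0.15), TEAD4 (-0.28) and AJUBA (-0.29). Length did not pass at YAP1, WWTR1, TEAD4 and AJUBA, and fell at 0 of the 10. Across all loci, 25.1% were higher and 6.15% lower, with a median difference of 0.22 on the log2 scale, and the 10 genes had a median of 0.28. With each library centred on its own median, the shares were 12.6% higher and 13.6% lower. Then CCN1 and ANKRD1 passed as higher, WWTR1 was lower, and the other 7 did not pass. Both siFLI1 libraries lay above both siNEG libraries at 6 of the 10 loci and at 51.7% of all, and below them at 0 and at 15.8%. Covered length depends on how many peaks pass the authors' limit and is not a measure of occupancy.

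**Figure D2:**
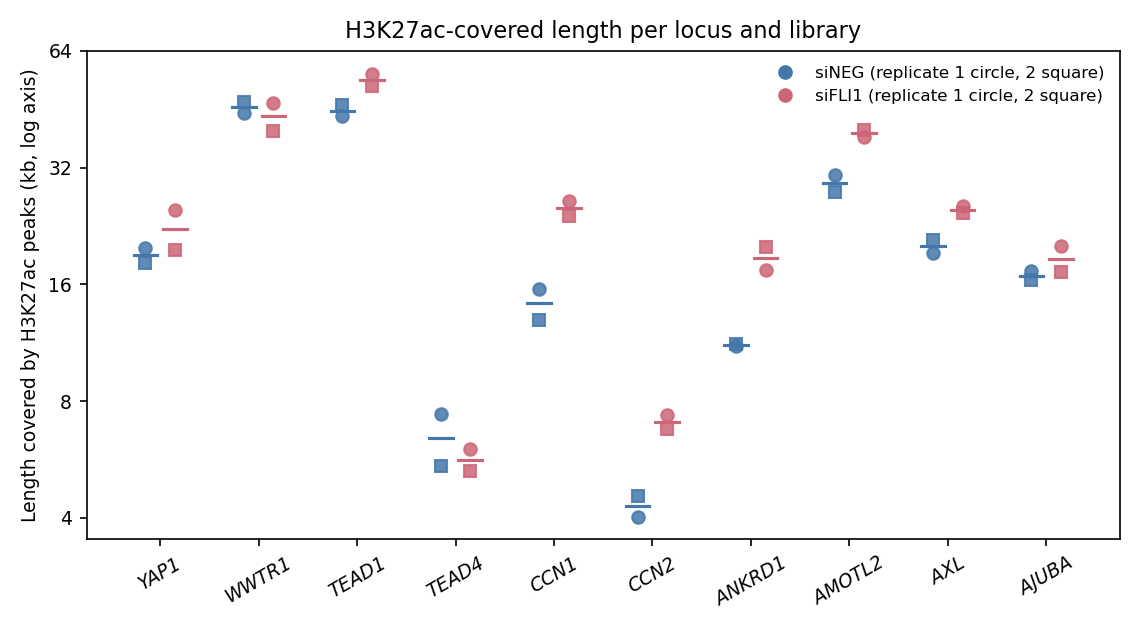
Length covered by H3K27ac peaks in each locus (kb, log axis) for the 2 siNEG and 2 siFLI1 libraries, with short lines at the group means. Both siFLI1 libraries lie above both siNEG libraries at TEAD1, CCN1, CCN2, ANKRD1, AMOTL2 and AXL, and the groups overlap at YAP1, WWTR1, TEAD4 and AJUBA.

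CCN1 encodes a secreted matricellular protein (CYR61) and is an immediate target of YAP. Its locus (ENSG00000142871.18, chromosome 1, 85580761 to 85584589, plus strand) had 15.6 and 13.0 kb of H3K27ac peaks in siNEG and 26.2 and 24.0 kb in siFLI1. The arms did not overlap. The log2 difference was 0.78 (SE 0.12, n = 2 libraries per arm, limma adjusted p = 0.00097), and 0.54 with centred libraries (limma adjusted p = 0.0029). One gained region lay 11.7 kb upstream in an intron of DDAH1 (85568590 to 85570312), with the authors' fold over local background at 5.23 and 4.92 in the siFLI1 lists. Another was intergenic, 31.0 kb downstream (85610775 to 85611974, fold 7.3 and 5.41), and in the ab4729 pair it had a peak in siFLI1 alone. Within 10 kb of the gene the difference did not pass (limma adjusted p = 0.32), nor did it without siFLI1 replicate 1 (limma adjusted p = 0.056).

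ANKRD1 encodes a nuclear ankyrin-repeat protein and is a common readout of YAP and TEAD. Its locus (ENSG00000148677.7, chromosome 10, 90912096 to 90921087, minus strand) had 11.1 and 11.2 kb of H3K27ac in siNEG and 17.4 and 19.9 kb in siFLI1. The siNEG libraries were nearly equal and both siFLI1 libraries were above them. The log2 difference was 0.69 (SE 0.12, limma adjusted p = 0.0021), and 0.45 with centred libraries (limma adjusted p = 0.021). It was not past the threshold without siFLI1 replicate 2 (limma adjusted p = 0.055). At the transcript start, H3K27ac was listed over 275 and 287 bp in siNEG and over 2310 and 2625 bp in siFLI1, in the region 90919617 to 90922241. This is the promoter whose letters are printed above. Gained regions lay 3.2 kb inside the gene (90917697 to 90918464) and 39.1 and 39.9 kb upstream (90959891 to 90960426 and 90960706 to 90961300). An upstream domain of 11606 bp (90927867 to 90939472), named after its values were seen, was in all 4 lists, with 8382 and 8403 bp in siNEG and 10164 and 11379 bp in siFLI1.

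CCN2 encodes connective tissue growth factor, a matricellular protein. Its locus (ENSG00000118523.6, chromosome 6, 131948176 to 131951372, minus strand) had 4.02 and 4.56 kb in siNEG and 7.36 and 6.78 kb in siFLI1. The arms did not overlap, and the log2 difference was 0.61 (SE 0.18, limma adjusted p = 0.024), or 0.37 with centred libraries (limma adjusted p = 0.13). Leaving out any 1 library ended the call (limma adjusted p from 0.063 without siNEG replicate 2 to 0.22 without siFLI1 replicate 1). No region was gained or lost. A region from just before the start to 2.81 kb inside the gene (131948558 to 131951472) was listed over 593 and 1034 bp in siNEG and over 2757 and 2589 bp in siFLI1. Its peaks ended 0.67 and 1.38 kb into the gene in siNEG and 2.73 and 2.81 kb into it in siFLI1, while the peaks upstream of it began at -4.1 and -4.22 kb from the start in siNEG and at -4.35 and -4.28 kb in siFLI1.

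AMOTL2 encodes an angiomotin that binds YAP and is itself induced by it. Its locus (ENSG00000114019.15, chromosome 3, 134355347 to 134375479, minus strand) had 30.6 and 27.6 kb in siNEG and 38.3 and 40.0 kb in siFLI1, with no overlap between arms. The log2 difference was 0.42 (SE 0.08, limma adjusted p = 0.0045), and 0.18 with centred libraries (limma adjusted p = 0.23). It did not pass without siNEG replicate 2 (limma adjusted p = 0.061), siFLI1 replicate 1 (0.068) or siFLI1 replicate 2 (0.072), nor within 10 kb of the gene (0.064). A merged region with peaks in all 4 lists, 134353546 to 134375408, spanned nearly the whole gene body, but single lists covered it unequally. Peaks within 1 kb of a transcript start summed to 12.3 and 4.45 kb in siNEG and 10.8 and 21.7 kb in siFLI1, and the arms overlapped there. Of the 4 gained regions at AMOTL2, the one at 134308574 to 134310553 had the highest fold, 7.27 and 7.48, and lay 65.5 kb downstream of the start. It and the regions 134314995 to 134316539 and 134317033 to 134318332 were also in the ab4729 siFLI1 list and not in the ab4729 siNEG list. The region 134352548 to 134353411 was in neither ab4729 list.

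**Figure D3:**
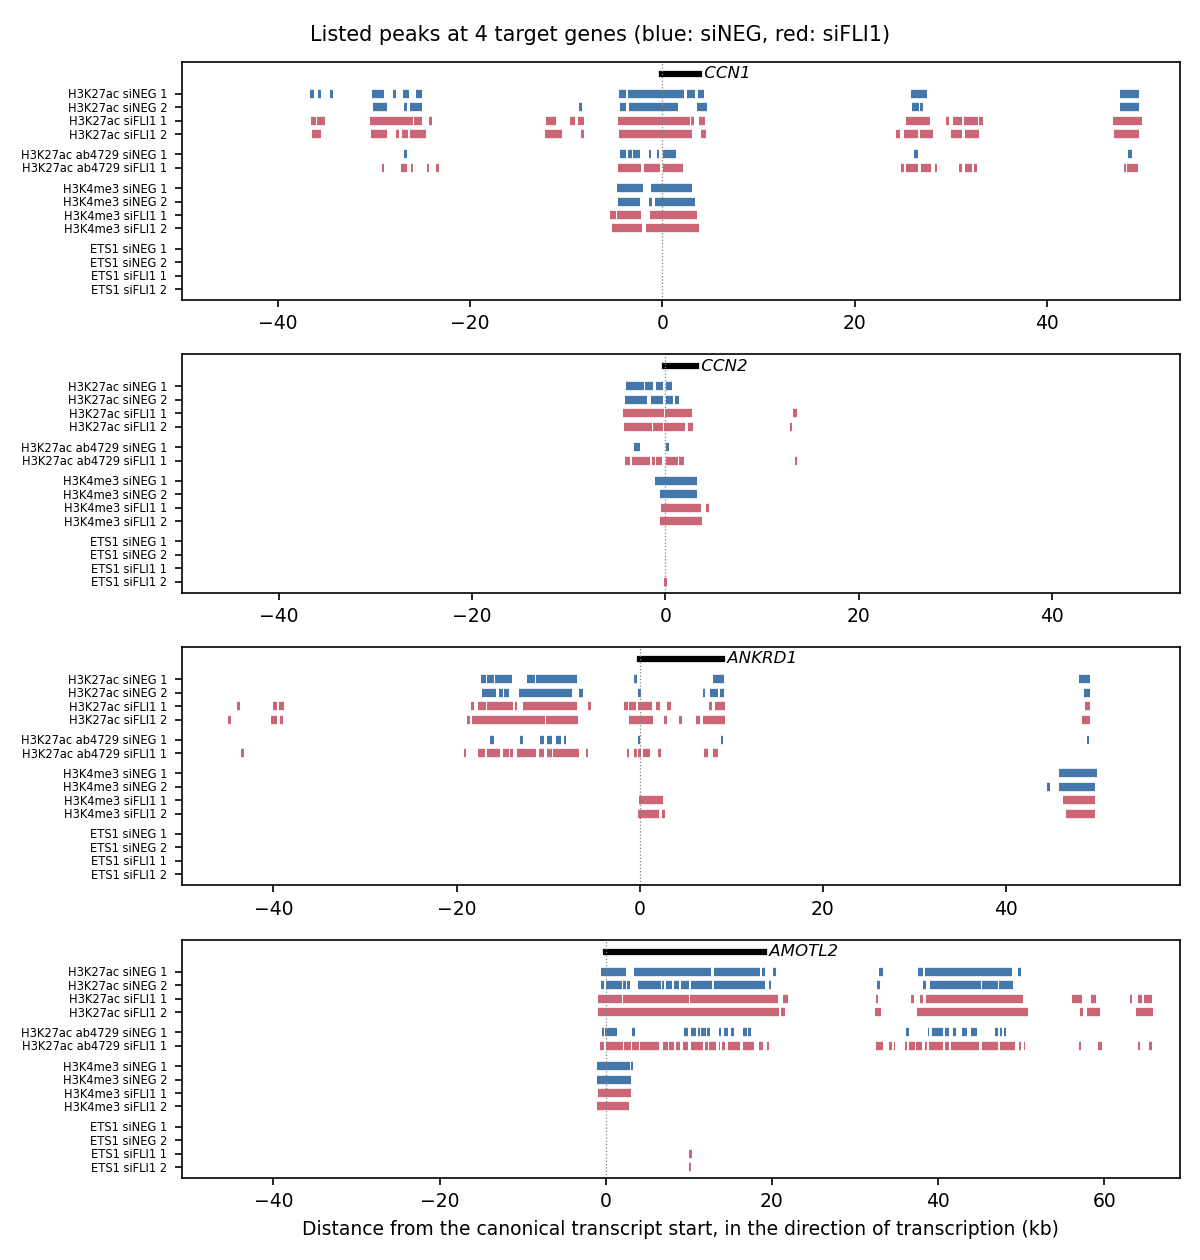
Listed peaks of every library at CCN1, CCN2, ANKRD1 and AMOTL2, by distance from the transcript start in the direction of transcription (kb), with siNEG in blue, siFLI1 in red and the gene body in black. At CCN1 the siFLI1 lists hold a peak 31.0 kb downstream where the siNEG lists have none, and at ANKRD1 H3K4me3 is listed at the start in siFLI1 alone.

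AXL encodes a receptor tyrosine kinase. Its locus (ENSG00000167601.12, chromosome 19, 41219223 to 41261766, plus strand) had 19.3 and 20.8 kb in siNEG and 25.4 and 24.4 kb in siFLI1, a log2 difference of 0.30 (SE 0.10, limma adjusted p = 0.036) with no overlap. With centred libraries it was 0.06 (limma adjusted p = 0.75), and each library left out ended the call (limma adjusted p from 0.082 without siNEG replicate 2 to 0.20 without siFLI1 replicate 1). Within 10 kb of the gene the difference did not pass either (0.34, limma adjusted p = 0.085), and the locus also overlaps CCDC97, CYP2S1, HNRNPUL1 and TGFB1. A region at the start of a shorter AXL transcript, 41222859 to 41227561, was listed over 1996 and 1925 bp in siNEG and over 4288 and 4400 bp in siFLI1. The single gained region (41298035 to 41298376) lay at a transcript start of the neighbour HNRNPUL1. The summit in the internal AXL region had GGAATG, the AP-1 core and CCGGAA within 150 bp. The 201 bases at chr19:41226095-41226295 are given on the plus strand, with GGAATG and the AP-1 core in capitals. They were chosen because H3K4me3 was listed there in siNEG alone. H3K27ac was listed there in both arms, over a longer region in siFLI1.
AXL internal start: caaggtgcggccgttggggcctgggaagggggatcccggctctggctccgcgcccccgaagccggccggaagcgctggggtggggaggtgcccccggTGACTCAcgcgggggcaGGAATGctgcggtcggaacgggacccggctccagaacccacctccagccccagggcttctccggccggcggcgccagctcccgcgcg

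TEAD1 is a DNA-binding partner of YAP and TAZ. Its locus (ENSG00000187079.20, chromosome 11, 12674421 to 12944737, plus strand) had 43.4 and 46.4 kb in siNEG and 55.6 and 51.9 kb in siFLI1, a log2 difference of 0.26 (SE 0.07, limma adjusted p = 0.021) with no overlap. The median of all loci was 0.22, and with centred libraries the TEAD1 difference was 0.01 (limma adjusted p = 0.94). Leaving out any 1 library ended the call (limma adjusted p from 0.069 without siNEG replicate 2 to 0.20 without siFLI1 replicate 1), as did equal numbers of the strongest peaks (0.062) and the fit with the ab4729 pair (0.054). All 4 gained regions and the lost region lay in its introns, and the gained ones were 90.8 to 223.7 kb from the start.

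YAP1, the coactivator itself (ENSG00000137693.14, chromosome 11, 102110447 to 102233424, plus strand), had 19.8 and 18.2 kb in siNEG and 24.9 and 19.7 kb in siFLI1. The second siFLI1 library lay within the siNEG values (log2 difference 0.21, SE 0.12, limma adjusted p = 0.22). Its promoter region, 102109578 to 102113011, was in all 4 lists over 3036, 2944, 3422 and 3351 bp. WWTR1, which encodes TAZ (ENSG00000018408.15, chromosome 3, 149517235 to 149736714, minus strand), had 44.3 and 47.2 kb in siNEG and 47.1 and 39.8 kb in siFLI1, and the arms overlapped (log2 difference -0.08, SE 0.09, limma adjusted p = 0.54). With centred libraries WWTR1 was lower by -0.32 (limma adjusted p = 0.038). WWTR1 had 2 gained regions (149538959 to 149539558 and 149604342 to 149605749) and 1 lost region (149747049 to 149747516, in an intron of COMMD2). The first of these overlapped a transcript start of WWTR1, and the promoter region from 149655158 to 149663509 was in all 4 lists.

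TEAD4, another TEAD factor (ENSG00000197905.10, chromosome 12, 2959330 to 3040676, plus strand), had 7.4 and 5.45 kb in siNEG and 6.01 and 5.28 kb in siFLI1, and the arms overlapped (log2 difference -0.15, SE 0.19, limma adjusted p = 0.58). It lost an intronic region 4.3 kb from its start (2963541 to 2964220), at which the ab4729 pair listed a peak in siFLI1 alone. AJUBA encodes a LIM-domain protein that restrains LATS kinases (ENSG00000129474.17, chromosome 14, 22971177 to 22982551, minus strand). Its locus had 17.3 and 16.4 kb in siNEG and 20.1 and 17.2 kb in siFLI1, and the arms overlapped (log2 difference 0.13, SE 0.11, limma adjusted p = 0.40). Neither gained nor lost regions were found at AJUBA.

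Per length of locus, H3K27ac in siNEG covered most at AMOTL2, 24.2% ± 1.79 (SD, n = 2), and least at TEAD4, 3.54% ± 0.763, and CCN2, 4.16% ± 0.371. Between them lay YAP1 at 8.52% ± 0.524, ANKRD1 at 10.2% ± 0.104, TEAD1 at 12.1% ± 0.574, CCN1 at 13.8% ± 1.78, AXL at 14.1% ± 0.75, WWTR1 at 14.3% ± 0.649 and AJUBA at 15.1% ± 0.583. TEAD1, AXL, WWTR1 and AJUBA each differed from CCN1 by less than the SD of CCN1, and TEAD4 and CCN2 by less than the SD of TEAD4. In siFLI1, CCN1 stood at 24.2% ± 1.51, ANKRD1 at 17.1% ± 1.62 and CCN2 at 6.85% ± 0.395.

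**Figure D4:**
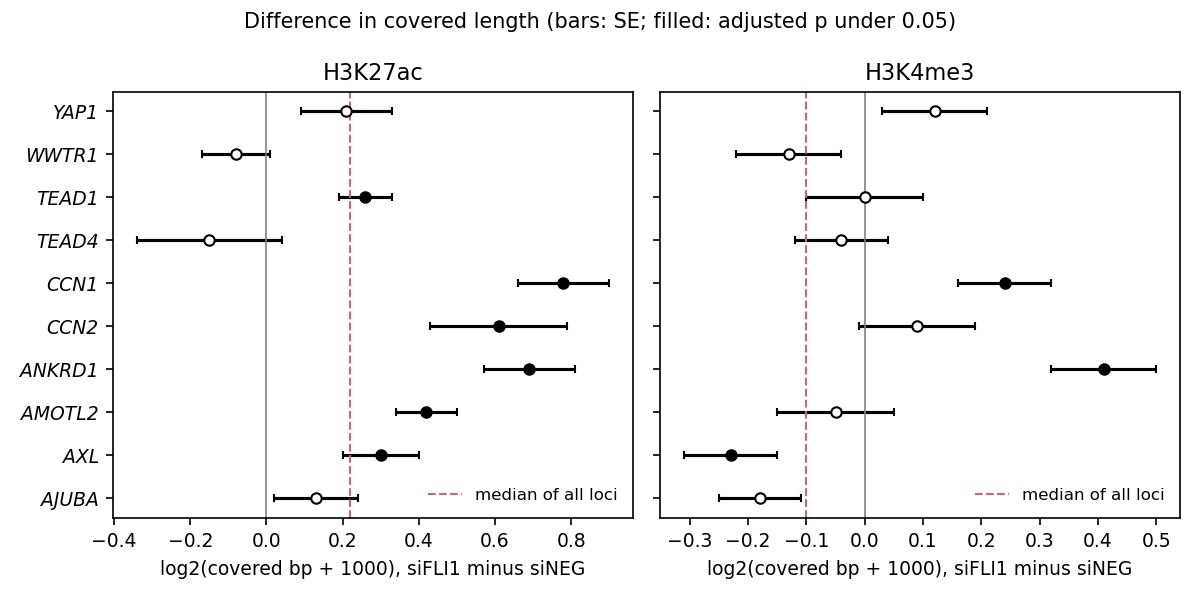
Difference in log2(covered bp + 1000), siFLI1 minus siNEG, for H3K27ac and H3K4me3 at each locus, with bars for the SE and filled points for adjusted p under 0.05. The dashed line is the median of all loci, 0.22 for H3K27ac and -0.10 for H3K4me3, and CCN1, ANKRD1, CCN2, AMOTL2 and TEAD1 lie to its right in both panels.

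The ab4729 libraries, 1 per arm, had no replicate check. Their ratio of covered length, siFLI1 over siNEG, was 1.53 at the median of 14326 loci. It was 5.23 at CCN2 (1.01 and 5.29 kb), 4.13 at ANKRD1 (3.08 and 12.7 kb), 2.8 at AMOTL2 (10.8 and 30.1 kb) and 2.74 at CCN1 (4.79 and 13.2 kb). The other 6 genes lay from 1.44 (WWTR1) to 1.96 (TEAD4). Of the 17 gained regions, 6 were in the ab4729 siFLI1 list alone and 0 in the siNEG list alone, against 31.6% and 0.863% of all gained regions. Of the 4 lost regions, 1 was in the siFLI1 list alone and 0 in the siNEG list alone, against 4.11% and 12.6% of all lost regions.

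H3K4me3 was listed at a transcript start of 9 of the 10 genes in both siNEG lists and of 10 in both siFLI1 lists. The exception was ANKRD1. Of the 34 H3K4me3 regions at the 10 loci, 1 was gained (2.94%), 1 was lost (2.94%) and 25 were in all 4 lists, against 2.17% gained, 2.83% lost and 62.6% in all 4 over all H3K4me3 regions. At 4.56% of all loci more H3K4me3 regions were gained than lost, and at 8.99% more were lost. The gained region was the ANKRD1 promoter, 90918277 to 90921223, not listed in either siNEG library and covered over 2651 and 2643 bp in siFLI1, with fold 9.07 and 7.02. The lost region was at the internal AXL start, 41226005 to 41226468, listed over 364 and 396 bp in siNEG. H3K27ac in the same interval was in all 4 lists and longer in siFLI1. H3K4me3 at the main AXL start (41218723 to 41220947) was listed in all 4, over 1392, 1399, 2010 and 1421 bp, with fold 7.23 and 11.3 in siNEG and 23 and 18.2 in siFLI1.

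**Figure D5:**
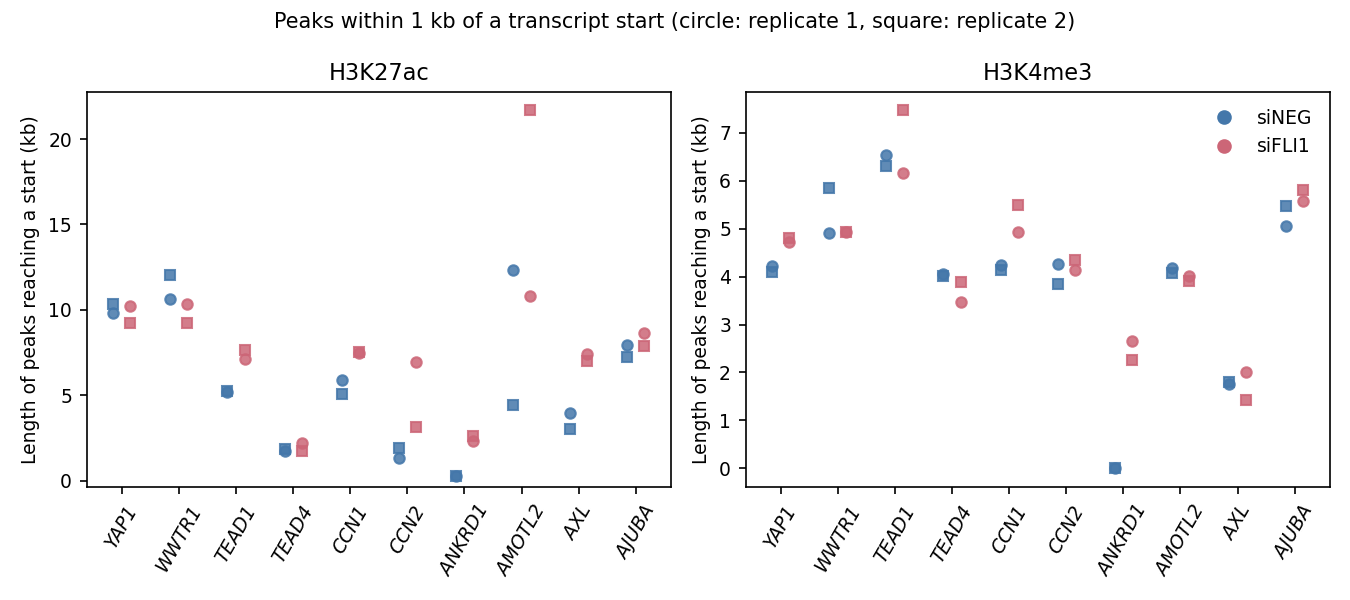
Summed length of H3K27ac and H3K4me3 peaks within 1 kb of any transcript start of each gene (kb), for each library. ANKRD1 has no H3K4me3 peak in siNEG and 2.65 and 2.25 kb in siFLI1, and its H3K27ac length goes from 0.275 and 0.287 kb to 2.31 and 2.62 kb.

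Covered H3K4me3 length was fitted across 16059 loci, of which 4.61% were higher and 21.3% lower in siFLI1, with a median difference of -0.10 (7.85% and 8.94% with centred libraries). Of the 10 genes, CCN1 and ANKRD1 rose, AXL fell and 7 did not pass. With the number of peaks in place of length none of these calls held (0.00 at CCN1, 0.50 at ANKRD1 and -0.32 at AXL, the last 2 with limma adjusted p = 0.65 and 0.42). Within 10 kb AXL did not pass (-0.22, limma adjusted p = 0.089) and CCN1 did (0.24, limma adjusted p = 0.049). Both siFLI1 libraries lay above both siNEG libraries at 4 loci (14.2% of all loci) and below them at 4 (50.7%). CCN1 had 6.95 and 6.82 kb in siNEG and 8.1 and 8.58 kb in siFLI1 (log2 difference 0.24, SE 0.08, limma adjusted p = 0.034), and ANKRD1 4.25 and 4.28 kb and 6.12 and 5.85 kb (0.41, SE 0.09, limma adjusted p = 0.0042). The arms did not overlap at either gene. All siNEG H3K4me3 in the ANKRD1 window lay at the promoter of the neighbour RPP30, at least 44.48 kb downstream, where the main region was listed over 4245 and 3933 bp in siNEG and 3472 and 3211 bp in siFLI1. Within 10 kb of ANKRD1 the siNEG lists held none. In AXL the values were 12.9 and 14.6 kb in siNEG and 11.3 and 11.9 kb in siFLI1 (log2 difference -0.23, SE 0.08, limma adjusted p = 0.035), in a window that also overlaps CCDC97, CYP2S1, HNRNPUL1 and TGFB1. With centred libraries AXL did not pass (-0.14, limma adjusted p = 0.17), and CCN1 and ANKRD1 did (0.33 and 0.50, limma adjusted p = 0.0054 and 0.00065). Leaving out any 1 library ended the call at CCN1 (limma adjusted p from 0.073 to 0.19), and leaving out either siFLI1 library ended it at ANKRD1 (0.11 and 0.054). For AXL the call ended without siNEG replicate 2 (0.29), siFLI1 replicate 1 (0.27) or siFLI1 replicate 2 (0.12).

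ETS1, a transcription factor of the ETS family, had 7 regions at these loci. None lay at YAP1, WWTR1, TEAD1, CCN1 or ANKRD1. Of the 7, 4 were gained, 1 was in all 4 lists and 0 were lost, against 44%, 4.66% and 0.0739% of all ETS1 regions, and the siFLI1 lists were longer by far than the siNEG lists with 302 and 208 peaks. At TEAD4 a promoter region 0.4 kb before the start (2958931 to 2959259) had fold 6.72 and 7.48. AJUBA had a promoter region (22982614 to 22982931, fold 6.2 and 8.84) and one at an inner transcript start 1.7 kb into the gene (22980652 to 22981003, fold 5.94 and 8.29), and a further region (22977753 to 22977989, fold 6.93) in siFLI1 list 2 alone. AMOTL2 had an intronic region 10.3 kb from its start (134364008 to 134364394, fold 5.94 and 5.3). At the CCN2 promoter a region (131951200 to 131951558, fold 5.71) was listed in siFLI1 list 2 alone, with its summit 148 bp before the start, among the GGAATG copies printed above. The AXL locus held a region in all 4 lists (41263902 to 41264721, fold 11.7 and 11.9 in siNEG and 20.3 and 24.5 in siFLI1), at the promoter of HNRNPUL1. With the same number of strongest peaks taken from every list, 0 of the 7 were gained. With both siFLI1 lists counted as 1 sample, no difference in ETS1 had a replicate check.

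GGAATG lay within 150 bp of 4 of these 7 ETS1 summits and of 11.1% of all ETS1 summits, and CCGGAA within 150 bp of 1 of the 7 (HNRNPUL1) and of 24.6% of all. GGAATG itself contains GGAA, the core that ETS factors read, so that the motifs cannot be told apart by this core. Below are 201 bases around the gained summits at TEAD4 (chr12:2958945-2959145), AMOTL2 (chr3:134364092-134364292) and the inner AJUBA region (chr14:22980749-22980949), on the plus strand, with GGAA and its reverse complement TTCC in capitals.
TEAD4 promoter: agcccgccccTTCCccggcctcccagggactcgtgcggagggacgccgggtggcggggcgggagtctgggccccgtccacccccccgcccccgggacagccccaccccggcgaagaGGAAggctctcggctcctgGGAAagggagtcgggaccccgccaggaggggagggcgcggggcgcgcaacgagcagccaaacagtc
AMOTL2 intron: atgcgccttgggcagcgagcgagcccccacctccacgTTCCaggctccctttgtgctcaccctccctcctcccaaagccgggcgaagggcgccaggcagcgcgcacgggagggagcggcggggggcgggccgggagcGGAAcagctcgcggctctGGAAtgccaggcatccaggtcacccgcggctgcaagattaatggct
AJUBA inner: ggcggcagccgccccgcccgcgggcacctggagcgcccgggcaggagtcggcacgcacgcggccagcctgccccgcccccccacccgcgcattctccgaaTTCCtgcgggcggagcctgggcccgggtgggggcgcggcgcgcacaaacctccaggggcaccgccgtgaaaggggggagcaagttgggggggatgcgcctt

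The wider pathway was described by 3 further lists. Of 14 upstream Hippo genes, 5 rose in H3K27ac length and 0 fell, with a median log2 difference of 0.29, against 25.1% higher, 6.15% lower and a median of 0.22 over all loci. Without WWC1, which entered the fit through its siFLI1 libraries alone, 4 of 13 rose, with a median of 0.23. AMOTL1, an angiomotin that binds YAP, had 15.2 and 12.5 kb in siNEG and 31.8 and 31.2 kb in siFLI1 (log2 difference 1.13, SE 0.11, limma adjusted p = 0.00014). MAP4K4, a kinase that acts on LATS, went from 20.5 and 17.7 to 34.4 and 30.5 kb (0.73, SE 0.10, limma adjusted p = 0.00078). The scaffold WWC1 went from 0.313 and 0 to 1.77 and 1.53 kb, with a siNEG mean of 0.157 kb that is under the 500 bp minimum of the fit. Since the siFLI1 values brought WWC1 into the fit, its adjusted p values below are no test of its rise. The kinase LATS2 went from 0.876 and 0.615 to 2.18 and 1.74 kb (0.76, SE 0.23, limma adjusted p = 0.030), and AMOT from 9.81 and 6.61 to 12.9 and 12.6 kb (0.60, SE 0.17, limma adjusted p = 0.024). With centred libraries and without WWC1, 2 of 13 were higher (12.6% of all loci) and LATS2 and AMOT did not pass (limma adjusted p = 0.098 and 0.097). In H3K4me3, 1 of the 14 rose and 1 fell, with a median of -0.08, against 4.61% higher, 21.3% lower and a median of -0.10 over all loci. AMOTL1 rose (0.45, SE 0.08, limma adjusted p = 0.0014) and LATS1, a kinase that phosphorylates YAP, fell (-0.21, SE 0.07, limma adjusted p = 0.039), though not with centred libraries (-0.12, limma adjusted p = 0.22). Without siFLI1 replicate 1 none of these calls held but that of AMOTL1 in H3K27ac (limma adjusted p = 0.031), with MAP4K4 at 0.051, WWC1 at 0.07, LATS2 at 0.20, AMOT at 0.21, and in H3K4me3 AMOTL1 at 0.079 and LATS1 at 0.18. AMOT, LATS2 and LATS1 also missed the threshold without siFLI1 replicate 2 (0.15, 0.10 and 0.19) or siNEG replicate 2 (0.15, 0.10 and 0.27). With the number of peaks in place of length no H3K27ac call of this list held, AMOTL1 included (limma adjusted p = 0.067, with MAP4K4 at 0.13, WWC1 at 0.31, LATS2 at 0.53 and AMOT at 0.54), and within 10 kb LATS2 and WWC1 did not pass (0.087 and 0.077). In H3K4me3 the number of peaks ended the call at LATS1 (limma adjusted p = 1), as did a window of 10 kb (-0.02, limma adjusted p = 0.90). With centred libraries 2 of the 14 were higher in H3K4me3 and 0 lower, against 7.85% and 8.94% of all loci. MAP4K4 then passed as higher (0.30, limma adjusted p = 0.032). With the number of peaks MAP4K4 and STK4 passed as lower (-0.58 and -0.42, limma adjusted p = 0.00039 and 0.014) and AMOTL1 as higher (0.74, limma adjusted p = 0.0074). Those counts had no spread within an arm.

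Among the other TEAD factors and their Vestigial-like cofactors, 1 of 4 tested genes rose in H3K27ac and 0 fell, with a median of 0.24, which is close to the 25.1% higher and the median of 0.22 over all loci. This was VGLL4, a repressor of TEAD, with 29.7 and 28.3 kb in siNEG and 46.9 and 40.9 kb in siFLI1 (log2 difference 0.58, SE 0.09, limma adjusted p = 0.00097). In H3K4me3, VGLL4 (0.24, SE 0.08, limma adjusted p = 0.036) and VGLL3 (0.35, SE 0.11, limma adjusted p = 0.029) rose and TEAD2 fell (-0.30, SE 0.10, limma adjusted p = 0.036), among 5 tested with a median of -0.09, against 4.61% higher and 21.3% lower over all loci. With centred libraries TEAD2 did not pass (-0.21, limma adjusted p = 0.16). The H3K27ac call at VGLL4 held without each library (limma adjusted p up to 0.049), while these H3K4me3 calls ended whichever library was left out, siNEG replicate 1 or 2 or siFLI1 replicate 1 or 2 (limma adjusted p from 0.091 to 0.27 at VGLL4, 0.058 to 0.15 at VGLL3 and 0.10 to 0.20 at TEAD2). With the number of peaks VGLL4 did not pass in H3K27ac (limma adjusted p = 0.59), nor VGLL4 and VGLL3 in H3K4me3 (1 at both). Within 10 kb VGLL4 and TEAD2 did not pass in H3K4me3 (0.056 and 0.057).

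Of 13 tested further YAP and TAZ targets, 7 rose in H3K27ac and 0 fell, with a median of 0.58, against 25.1% higher, 6.15% lower and a median of 0.22 over all loci. Without F3, which entered the fit through its siFLI1 libraries alone, 6 of 12 rose, with a median of 0.46. TGFB2, a TGF-beta ligand, had the lowest adjusted p of the list, with 20.5 and 18.2 kb in siNEG and 51.2 and 47.9 kb in siFLI1 (log2 difference 1.31, SE 0.09, limma adjusted p = 3.9e-05). The RNA-binding protein gene RBMS3 went from 26.6 and 20.1 to 37.5 and 37.2 kb (0.67, SE 0.12, limma adjusted p = 0.0023). ARHGEF17, which encodes a guanine nucleotide exchange factor, went from 14.4 and 15 to 23.6 and 21.3 kb (0.58, SE 0.11, limma adjusted p = 0.0030). F3, which encodes tissue factor, went from 0.371 and 0 to 2.36 and 1.84 kb, with a siNEG mean of 0.185 kb. Since the siFLI1 values brought F3 into the fit, its adjusted p values below are no test of its rise. CCDC80 went from 2.19 and 1.09 to 3.4 and 4.45 kb (0.92, SE 0.26, limma adjusted p = 0.021). The other 2 that rose, named after their values were seen, were CRIM1, from 45.0 and 45.8 to 62.3 and 54.3 kb (0.35, SE 0.08, limma adjusted p = 0.0065), and DOCK5, from 3.16 and 1.67 to 4.25 and 5.37 kb (0.80, SE 0.25, limma adjusted p = 0.034). Neither passed with centred libraries (limma adjusted p = 0.45 and 0.081). With centred libraries and without F3, 4 of 12 were higher and 1 was lower, against 12.6% and 13.6% of all loci. In H3K4me3, 4 of 14 rose and 0 fell, with a median of 0.12, against 4.61% higher, 21.3% lower and a median of -0.10 over all loci. Without IGFBP3, 3 of 13 rose, with a median of 0.08, and 5 of 13 were higher with centred libraries (7.85% of all loci). IGFBP3, which encodes an insulin-like growth factor binding protein, was listed at 0 in both siNEG lists and over 3.98 and 4.04 kb in siFLI1, and so entered the fit through siFLI1 alone. TGFB2 (0.58, SE 0.09, limma adjusted p = 0.00031), CCDC80 (0.53, SE 0.09, limma adjusted p = 0.00096) and ARHGEF17 (0.27, SE 0.09, limma adjusted p = 0.041) were the others. In H3K27ac, TGFB2 passed without each library (limma adjusted p up to 0.025). Without siFLI1 replicate 1 the others did not: F3 stood at 0.064, ARHGEF17 at 0.075, RBMS3 at 0.08, CRIM1 at 0.11, CCDC80 at 0.13 and DOCK5 at 0.17. RBMS3, CCDC80 and DOCK5 also missed the threshold without siFLI1 replicate 2 (0.059, 0.20 and 0.27), and CRIM1, CCDC80 and DOCK5 without siNEG replicate 2 (0.074, 0.13 and 0.19). With the number of peaks in place of length none of the 7 passed (limma adjusted p = 0.31 at TGFB2, 0.53 at F3, 0.40 at RBMS3, 0.63 at ARHGEF17, 0.095 at CCDC80, 1 at CRIM1 and 0.32 at DOCK5). In H3K4me3, TGFB2 and CCDC80 did not without siFLI1 replicate 1 (0.052 and 0.086), and ARHGEF17 did not without any of siNEG replicates 1 and 2 and siFLI1 replicates 1 and 2 (0.079 to 0.36). With the number of peaks TGFB2 and CCDC80 did not pass (1 and 0.65), and ARHGEF17 turned to lower (-0.32, limma adjusted p = 0.028), on counts with no spread within an arm, 4 peaks in each siNEG list and 3 in each siFLI1 list.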

How the data were processed

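Peak lists of 14 immunoprecipitated libraries were analysed, each called on its own library. The submitters' processing notes name cutadapt 4.4, BWA 0.7.17, Picard 2.17.11 and MACS2 2.1.1, with no role or order, and the builds GRCh38, hg38 and dm6. Settings and control libraries are not given in the sources used here. Each deposited list gives the authors' fold (a ratio to local background) and, on a −log10 scale, the authors' p and q. These columns are in narrowPeak order, and the deposited score was not used. Fold described peaks and ranked them within 1 list. With the authors' p it also gave the summit heights that the replicate check compared between lists. Folds printed side by side for different lists were not tested.

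The 10 genes, the lists and the tests were chosen with earlier results of these data known. Only peaks of the autosomes and sex chromosomes entered, with coordinates on hg38 counted from 1. Lists of 1 antibody were merged where peaks shared at least 1 bp. Covered length per locus was fitted with limma 3.58.1 (R 4.3.3, trend on the mean, two-sided, Benjamini-Hochberg over all loci tested), tested first on simulated data. In simulated H3K27ac tables, 44.5% of log2 changes of 0.5 and 94.5% of changes of 1 were recovered, so that small changes can be missed. In simulated H3K4me3 tables, 96% of changes of 0.5 were recovered. ETS1 was not fitted, as 1 arm had 1 sample, and the ab4729 pair entered only an alternative fit with the other H3K27ac libraries. An exact permutation test of 2 against 2 libraries cannot go below p = 0.33. Named beside the 10 genes were those of each list past an adjusted p of 0.05 in either fit, at most 6 with the lowest adjusted p (genes named beyond these are said to be so), and named regions were gained or lost, over a transcript start or bound by ETS1. Sequences came from RefSeq promoters (GRCh38.p14) and hg38. Alternatives were other pseudocounts, minimum lengths, windows, peak limits, centring, a replicate block and leaving out each library. A few items are not reported here.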

Additional observations from a re-analysis of the deposited data

Results flagged for a closer look

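In the ab4729 H3K27ac lists, which had 1 library per arm and no test, CCN2 and ANKRD1 stood out because their ratio of covered length, siFLI1 over siNEG, exceeded the 90th percentile of 14326 loci, 3.26. The ratio was 5.23 at CCN2, with 1.01 kb in siNEG and 5.29 kb in siFLI1. At ANKRD1 it was 4.13, with 3.08 kb in siNEG and 12.7 kb in siFLI1. The ab4729 siFLI1 list covered 1.66 times the length of the siNEG list as a whole.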

How the results depend on the processing

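The 34 results were recomputed in 432 alternative values, of which 319 gave the same call or a close value, 61 moved, 46 lost and 3 gained a call, and in 3 a difference that had passed took the other sign. Among differences that had not passed, 11 more values took the other sign, at YAP1, WWTR1, TEAD4 and AJUBA in H3K27ac and at TEAD4, AMOTL2 and AJUBA in H3K4me3. The causes were not tested. With the number of peaks in place of length, 216 loci were higher and 99 lower in H3K27ac (3942 and 967 by length) and 410 and 534 in H3K4me3 (740 and 3418), 0 of the 10 genes passed in either mark, and the H3K27ac differences of CCN2 (-0.03), AMOTL2 (-0.30) and AXL (-0.10), which had passed, changed sign, with limma adjusted p of 1.00, 0.80 and 0.86. So did those of AJUBA in H3K27ac (-0.29) and TEAD4 in H3K4me3 (0.21), which had not passed. With centred libraries the counts were 1978 and 2131 in H3K27ac, with 2 genes higher and 1 lower, and 1260 and 1436 in H3K4me3, with 0 lower. A window of 10 kb gave 2041 and 574 in H3K27ac, with 3 genes higher and 8 regions gained, and 1568 lower in H3K4me3, with 0 genes lower. Adding the ab4729 pair gave 503 loci lower. The H3K4me3 count of 1 gene lower, AXL, became 0 with no minimum length, with equal numbers of peaks and at −log10 q of 5 or more. At that limit 1 H3K27ac region was lost, and at it or with equal numbers 0 H3K4me3 regions were lost. Equal numbers left 0 gained ETS1 regions, from lists cut to 208 peaks.

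Leaving out 1 library gave 540 (without siFLI1 replicate 1) to 3595 loci higher and 287 to 632 lower in H3K27ac, with 1 to 3 of the genes higher. In H3K4me3 it gave 142 to 541 higher and 115 to 2702 lower, with 0 to 1 genes higher and 0 to 2 lower. Regions at the genes ranged from 21 gained to 59 (without siFLI1 replicate 2) and from 5 lost to 28 (without siNEG replicate 1) in H3K27ac, and from 1 to 2 gained and 1 to 6 lost in H3K4me3. ETS1 gained regions ranged from 4 to 6.

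With the replicate block, H3K27ac gave 4285 loci higher and 1034 lower and H3K4me3 gave 931 and 4473, with 2 of the genes lower (AXL and AJUBA). Deviations of libraries with the same replicate number had a correlation across loci of 0.005 in H3K27ac and 0.003 in H3K4me3. Such a correlation cannot see a shift of a whole library, so it does not settle whether libraries of the same number were paired. In both arms, replicate 1 covered more than replicate 2 in H3K27ac and less than replicate 2 in H3K4me3. Read depth was not known, and peaks under the authors' limit are not in the lists.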

Other observations

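ETS1 peaks were also listed at other genes of the pathway, chosen here after their values were seen. TEAD3 had 0.485 and 0.292 kb in the siFLI1 lists and none in siNEG, VGLL1 had 0.344 and 0.345 kb, LATS1 had 0.37 and 0.33 kb, NUAK2 had 0.294 and 0.262 kb and GADD45A had 0.33 and 0.158 kb, each with none in siNEG. TAOK1 had 0.186 kb in 1 siNEG list and 0.365 and 0.919 kb in siFLI1. DOCK5 had 0.214 and 0.235 kb in the siNEG lists, and 0 and 0.329 kb in siFLI1. AMOT had 0.157 kb and ASAP1 0.377 kb in 1 siFLI1 list each. At least 1 gained ETS1 region lay at 15.6% of all loci, and at 3 of the 10 genes of the report.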
